A study of Mus musculus with 8 samples.

Results

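The genes described are 35 genes of DNA replication and S phase, chosen by name from the known machinery of replication origins, replication forks, nucleotide supply and the passage from G1 into S phase. Of the 35, 33 had a probe bright enough to be used, among 13987 genes tested of 20887 genes named on the array. The samples were pairs of whole kidneys of C57BL/6 embryos at embryonic day 16.5, 4 wildtype (WT1 to WT4) and 4 labelled DOT1-null (KO1 to KO4), in which Dot1, the histone H3 lysine 79 methyltransferase, was deleted conditionally in Six2-positive nephron progenitor cells. The allele and the promoter that drove the deletion are not given in the sources used here, and stroma, vessels, collecting duct and blood cells in these kidneys lie outside the targeted lineage. Each array held a sample in Cy5 (red) against RNA of WT1 in Cy3 (green), so every level below is a log2 ratio of the sample over WT1 reference RNA, and the WT1 array measured WT1 against itself.

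Replication starts at origins that are licensed in G1, when the origin recognition complex, Cdc6 and Cdt1 load the ring-shaped Mcm2 to Mcm7 helicase onto DNA. In S phase Mcm10, Cdc45 and the GINS complex turn the loaded ring into an active helicase, polymerases copy the strands behind a clamp of Pcna, and histones are placed on the new DNA. Most of these genes are E2F targets that are transcribed at the entry into S phase, so in a growing organ their transcripts come mainly from dividing cells. In the embryonic kidney such cells lie in the progenitor pool, the forming nephrons, the ureteric tips and the stroma.

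Promoter sequences of the members were searched for the words that E2F factors are known to bind. RefSeq promoter sequences (assembly GRCm38.p6, 250 bases before to 50 bases after the start) were held for 29 of the 35 members. An E2F-type word, searched as TTTCCCGC, TTTCGCGC, TTTGCCGC or TTTGGCGC on both strands, was present in 11 of the 29 (37.9%), in Orc1, Cdc6, Cdt1, Mcm3, Mcm5, Mcm6, Mcm7, Pola1, Rfc3, Lig1 and Uhrf1, and in 704 of all 27025 promoters of the table (2.6%). The stretches around the words of Mcm5, Mcm6 and Rfc3 that lie outside annotated genes are given because they show a word by itself and a pair that overlaps on opposite strands. The stretch of Rfc3 was ended at the start site, where a further word on the other strand begins. They are written 5′ to 3′ on the strand of the gene, with the E2F words in capitals.
Mcm5, chr8:75109332-75109387, plus strand: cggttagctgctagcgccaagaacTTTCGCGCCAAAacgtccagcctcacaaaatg
Mcm6, chr1:128359784-128359839, minus strand: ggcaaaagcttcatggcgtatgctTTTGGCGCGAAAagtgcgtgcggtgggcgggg
Mcm6, chr1:128359721-128359776, minus strand: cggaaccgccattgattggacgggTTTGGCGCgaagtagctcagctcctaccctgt
Rfc3, chr5:151651209-151651242, minus strand: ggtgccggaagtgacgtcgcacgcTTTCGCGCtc
In the first and the second of these the words TTTCGCGC or TTTGGCGC read on 1 strand overlap a word on the other strand, and the run in capitals holds both. The first word starts 153 bases before the start in Mcm5, 110 and 47 bases before it in the sequences of Mcm6, and 10 bases before it in Rfc3. The word CCAAT, searched on both strands, was found in 18 of the 29 promoters (62.1%) against 41.1% of all promoters. A match is a description of the letters and not a measured site. The KO minus WT differences of the members had a median of -0.143 with an E2F word and of -0.142 without one.

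In KO kidneys most replication genes lay slightly below WT, and none passed the test. Of the 33 measured members, 26 had a difference below 0 (78.8%), against 40.7% of all genes tested, and the median difference was -0.142 on the log2 scale against 0.03 for all genes. These counts and those below are descriptive, since members transcribed in the same cells do not vary independently. The members were also chosen with earlier results of these data known. Of the fits run, only that on the red channel alone turned the direction, with 12 of 33 below 0 and a median of 0.0408, where the median of all genes itself was 0.217. At a limma adjusted p under 0.05 (Benjamini-Hochberg over all 13987 genes), 0 members passed, against 2.12% of all genes tested (296 genes, 220 higher and 76 lower; 554 genes and 0 members in the fit blocked by replicate). The members' adjusted p in limma ran from 0.136 to 0.984.

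At an unadjusted limma p under 0.05, 7 members passed, 6 of them lower in KO (18.2% of members against 3.37% of all genes) and 1, Mcm3, higher (3.03% against 11.1%). The count was 11 with the replicate block, 13 without WT1, 14 without WT1 and KO1, 4 without either WT4 or KO4, and 3 without WT4 and KO3. It was 0 with median centring in place of loess and 0 in the red channel alone. Every KO array lay below every WT array for 3 members, Gins2, Mcm7 and Chaf1b (9.09% against 2.46% of all genes), and above for 0 (against 6.81%). At the second probe of Chaf1b the groups overlapped. The differences were not much larger than their error: the median size was 0.151 and the median SE was 0.113, with 4 arrays in each group. The 95% intervals of the members reached from -0.57, which is 1.49-fold lower, to 0.52, which is 1.43-fold higher, when Mcm3 is left out. These bounds hold for this fit: with sex as a term Cdc45 differed by -0.63 ± 0.16, and without WT1 and KO1 Chaf1b differed by -0.42 ± 0.13. The value with sex as a term rests on WT2, the only male WT array. A change within the progenitors alone was not measured here, and fewer dividing cells and less transcript per cell cannot be told apart in whole tissue.

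**Figure D1:**
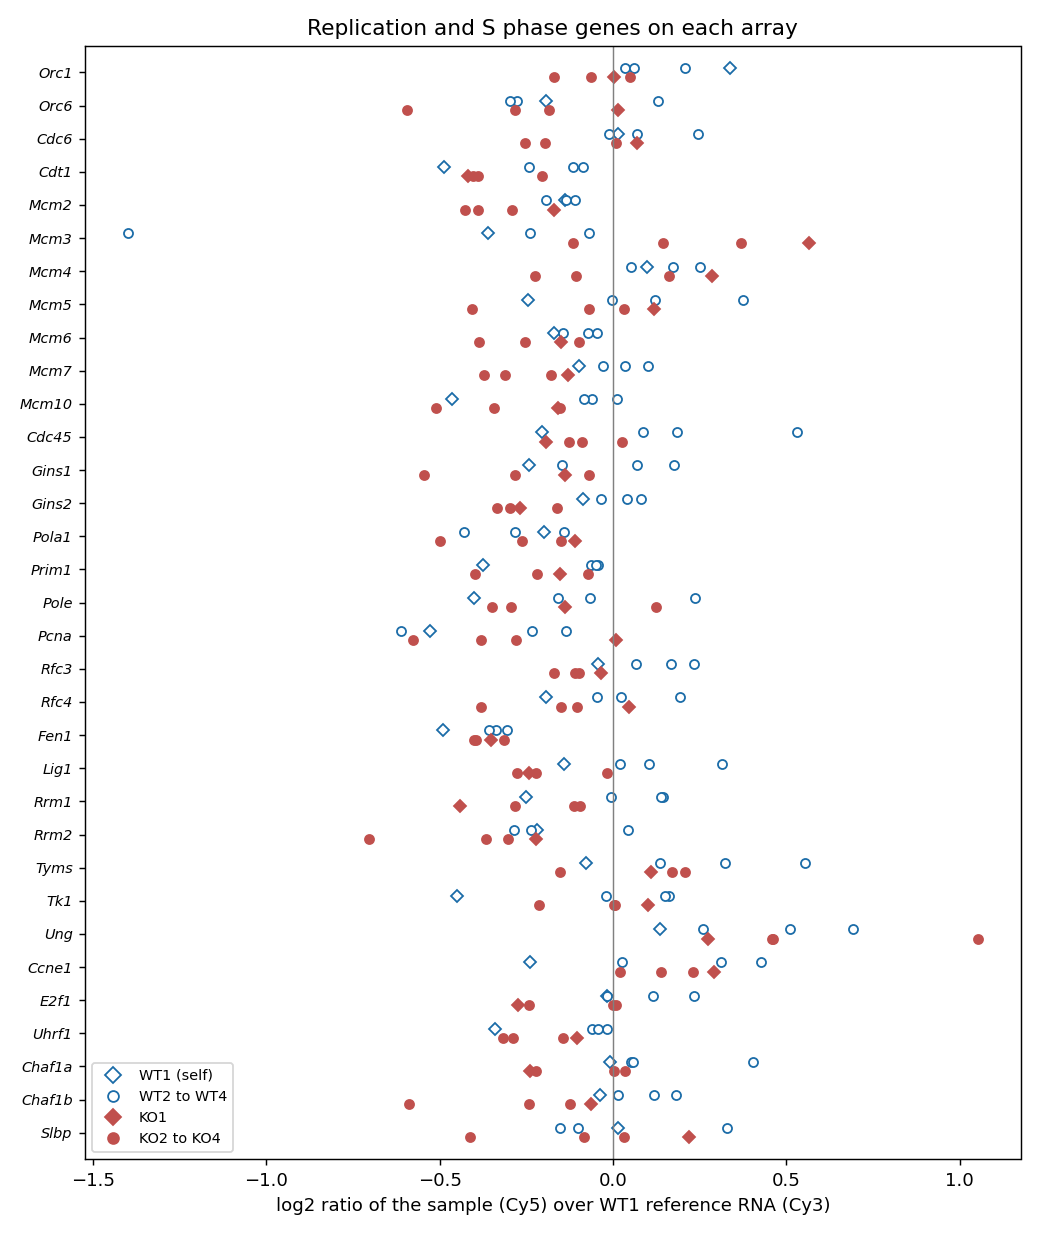
The log2 ratio of sample (Cy5) over WT1 reference RNA (Cy3) is plotted for each of the 33 measured members (vertical axis) on each array, with WT in open blue and KO in filled red symbols and diamonds for WT1 and KO1. The groups overlap for all but Gins2, Mcm7 and Chaf1b, and the WT3 array stands far to the left for Mcm3, at -1.40.

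2 arrays stood apart before any comparison. The red negative-control spots had a median of 1361 scanner units on WT1 and 478.2 on KO1, and of 58 to 61 on the other 6 arrays, and across probes the green signal, of the same RNA throughout, had a median correlation with the remaining arrays of 0.566 on WT1, 0.9 on KO1 and at least 0.996 elsewhere. On the WT1 array, where both colours held the same RNA, 28 of the 33 members lay below 0, with a median size of 0.2, and for 17 members this self ratio was larger in size than the difference between the groups. By Xist and Ddx3y all KO embryos and WT2 were male and the other 3 WT embryos female. All KO arrays lay in the second row of the slide and all WT arrays in the first, so that row and group cannot be told apart. All 5 markers of kidney epithelium, 6 of 6 of podocytes and 12 of 12 of nephron progenitors were measured. So were 2 of 4 genes listed for liver, 3 of 6 for gonad and 1 of 6 for adrenal and sympathetic cells. These counts only say that a probe was bright enough, so they do not establish the identity of the tissue. Dot1l itself differed by 0.030 ± 0.082 (limma adjusted p = 0.924), and where its probe lies relative to the deleted part was not analysed here.

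Among the origin licensing genes 9 of 10 measured members lay below 0, with a median of -0.132. The clearest was Mcm7, a subunit of the helicase ring. Its log2 ratio was -0.10, 0.033, -0.030 and 0.10 in WT1 to WT4 and -0.13, -0.18, -0.37 and -0.31 in KO1 to KO4. All KO arrays were thus below all WT arrays, by the narrow gap between WT1 and KO1. The difference was -0.25 ± 0.088 (SE, n = 4 per group; 1.19-fold lower; limma adjusted p = 0.195), so it did not pass. Mcm2, another subunit of the ring, stood at -0.14, -0.19, -0.11 and -0.14 in WT and -0.17, -0.29, -0.43 and -0.39 in KO. The WT arrays lay close together and KO3 and KO4 were the low ones, and the difference was -0.18 ± 0.084 (limma adjusted p = 0.371). Mcm4 (-0.11 ± 0.11), Mcm5 (-0.14 ± 0.14) and Mcm6 (-0.11 ± 0.088) had 95% intervals that held 0.

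The proteins that load the ring gave like values. Orc1, the largest subunit of the origin recognition complex, had log2 ratios of 0.34, 0.035, 0.061 and 0.21 in WT and 0.0018, 0.048, -0.064 and -0.17 in KO. The groups overlapped, WT1 was the highest array, and the probe was well above background on 6 of 8 arrays. Its red signals on WT1 and KO1 were 1890 and 495 units, against negative-control medians of 1361 and 478.2 there. Orc1 differed by -0.21 ± 0.094 (limma adjusted p = 0.339). Orc6, the smallest subunit, differed by -0.10 ± 0.13, Cdc6 by -0.17 ± 0.10 and Cdt1 by -0.12 ± 0.10, and a second, dim probe of Cdc6 gave -0.025. Gmnn, which encodes geminin, the inhibitor of Cdt1, was not well above background in red on any array (66 to 80 units on the arrays other than WT1 and KO1), so no level is given.

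Mcm3, the remaining subunit of the ring, lay on the other side of 0. The log2 ratio of Mcm3 was -0.36, -0.24, -1.40 and -0.070 in WT1 to WT4 and 0.56, -0.11, 0.14 and 0.37 in KO1 to KO4. WT3 was far below all other arrays, and KO2 lay below WT4, so the groups overlapped. The difference was 0.76 ± 0.24 (1.69-fold higher; limma adjusted p = 0.152), and it was 0.464 without WT3. With the replicate block, a pairing that is not established, its limma adjusted p was 0.0502. With sex as a term the difference of Mcm3 was 0.48 ± 0.38, a value that rests on WT2, the only male WT array.

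Both colours of the Mcm3 spot were read on every array. Red Mcm3 signals were 12356.5, 5717, 2440 and 8470 scanner units on WT1 to WT4 and 13532, 5645.5, 4111 and 8597 on KO1 to KO4. Before normalization KO2 and KO4 had nearly the red signal of WT2 and WT4, although arrays of the same number are not established pairs. Raw red signals also vary with the brightness of each array, so they do not show by themselves whether Mcm3 differed. The green signals of the reference RNA, which is the same on every array, were 4298, 3158, 3069 and 2530 on the WT arrays and 1986, 2165, 2274 and 2133.5 on the KO arrays. Green signals before normalization were likewise lower on every KO array than on every WT array for 19 of the 33 measured members, so this does not set Mcm3 apart. The same count was not made over all genes, so it shows nothing particular to the members. In the red channel alone, without WT1 and KO1, the difference was 0.55 ± 0.31 (limma adjusted p = 0.488). The gene had a single probe with a single spot, which the scanner software did not mark as an outlier.

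**Figure D2:**
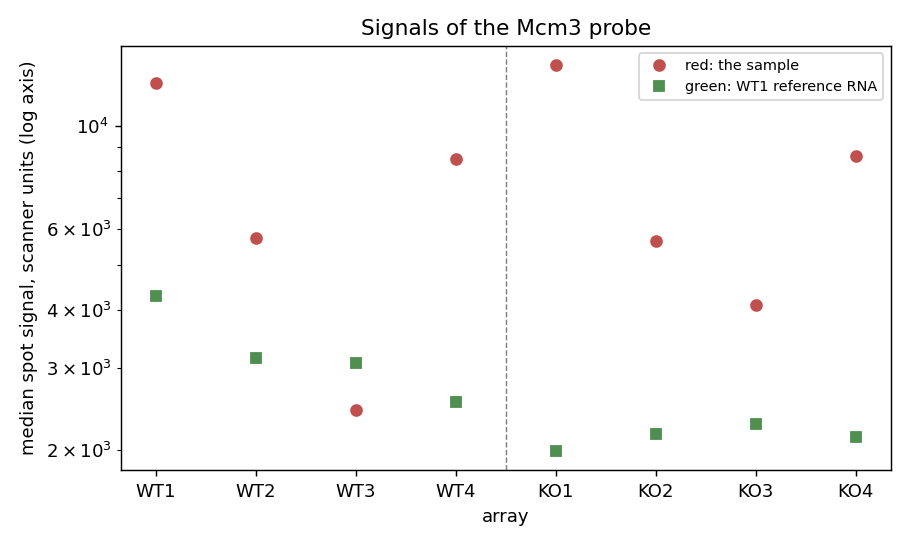
Median spot signals of the Mcm3 probe in scanner units on a log axis, for the sample (red circles) and the WT1 reference RNA (green squares) on each of the 8 arrays. Green signals are 2530 to 4298 on the WT arrays and 1986 to 2274 on the KO arrays, and the red signal of WT3, 2440, is the lowest.

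All 4 genes of origin firing and helicase assembly lay below 0, with a median of -0.234, the lowest of the 6 roles. Gins2, a subunit of the GINS complex, had the smallest p of all members. It stood at -0.087, 0.080, -0.036 and 0.040 in WT and at -0.27, -0.16, -0.34 and -0.30 in KO. Every KO array was below every WT array, and here WT1, the lowest WT array, was still above KO2. The difference was -0.26 ± 0.082 (95% interval -0.44 to -0.087; 1.20-fold lower; limma adjusted p = 0.136). Leaving out each array in turn gave -0.300 to -0.238 for Gins2, with a lowest limma adjusted p of 0.113.

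Gins1, its partner in the complex, differed by -0.22 ± 0.12 (limma adjusted p = 0.449). Cdc45, which joins the helicase with GINS, had log2 ratios of -0.20, 0.53, 0.087 and 0.18 in WT and -0.19, 0.024, -0.088 and -0.13 in KO. WT2 stood high and WT1 lay below all KO arrays, and the difference was -0.25 ± 0.13 (limma adjusted p = 0.435). Mcm10, which is needed to activate the helicase, differed by -0.14 ± 0.12.

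The fork genes were the least shifted of the larger roles, with 5 of 8 below 0 and a median of -0.0724. Lig1, the ligase that seals Okazaki fragments, stood at -0.14, 0.31, 0.021 and 0.11 in WT and -0.24, -0.016, -0.28 and -0.22 in KO. WT2 was the highest array, KO2 the highest KO array, and only WT1 fell among the KO arrays. The difference was -0.26 ± 0.11 (limma adjusted p = 0.266). Rfc3, a subunit of the loader that opens the Pcna clamp, had -0.043, 0.17, 0.066 and 0.23 in WT and -0.034, -0.10, -0.17 and -0.11 in KO. All KO arrays were below WT2, WT3 and WT4, and WT1 lay just below KO1. Rfc3 differed by -0.21 ± 0.087 (limma adjusted p = 0.281), and Rfc4 of the same loader by -0.14 ± 0.11, or -0.29 at its second probe.

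Pcna, the clamp itself and a common marker of dividing cells, gave no difference that its arrays could resolve. Its log2 ratio was -0.53, -0.61, -0.14 and -0.23 in WT and 0.0079, -0.38, -0.58 and -0.28 in KO. The spread within each group exceeded the difference of 0.069 ± 0.14 (95% interval -0.23 to 0.37), and WT1 measured against itself read -0.53. Fen1, the flap nuclease of Okazaki fragments, differed by 0.0074 ± 0.080 (95% interval -0.17 to 0.18). Pola1, the catalytic subunit of the polymerase that starts each strand, differed by 0.0087 ± 0.11. Prim1, the primase beside it, differed by -0.078 ± 0.10, and Pole, the leading strand polymerase, by -0.067 ± 0.14.

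Nucleotide supply was split. Both subunits of ribonucleotide reductase, which makes deoxynucleotides, lay below 0. Rrm1, the large subunit, had -0.25, -0.0046, 0.14 and 0.14 in WT and -0.44, -0.094, -0.11 and -0.28 in KO. The groups overlapped through WT1, and the difference was -0.24 ± 0.11 (limma adjusted p = 0.361). Rrm2, the small subunit, had -0.22, -0.28, -0.24 and 0.042 in WT and -0.22, -0.30, -0.70 and -0.37 in KO. KO3 was the lowest array by far and WT4 the highest, and the difference was -0.22 ± 0.12 (limma adjusted p = 0.412). Tyms, which makes thymidylate, differed by -0.15 ± 0.13 and Tk1, the thymidine kinase of the salvage route, by 0.015 ± 0.13. Ung, which removes uracil from DNA, differed by 0.16 ± 0.16 (limma adjusted p = 0.727), with KO3 the highest array at 1.05.

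Of the G1/S regulators, E2f1, a transcription factor that switches on many of the other members, had -0.017, 0.23, -0.017 and 0.11 in WT and -0.27, 0.0088, 0.0012 and -0.24 in KO. KO1 and KO4 were low, KO2 and KO3 lay among the WT arrays, and the difference was -0.21 ± 0.10 (limma adjusted p = 0.376). Ccne1, the cyclin E that drives entry into S phase, differed by 0.039 ± 0.13, but by -0.15 at its second probe. Ccne2 was not well above background in red on any array (51 to 68 units on the arrays other than WT1 and KO1).

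All 4 genes of S phase chromatin and histone supply lay below 0, with a median of -0.165. Chaf1b, a subunit of the chromatin assembly factor that places histones on new DNA, had the lowest difference of all members. It stood at -0.036, 0.12, 0.016 and 0.18 in WT and at -0.064, -0.12, -0.59 and -0.24 in KO. At this, its brightest probe, no KO array reached a WT array, but WT1 and KO1 were close and KO3 was far below the others. The difference was -0.32 ± 0.12 (1.25-fold lower; limma adjusted p = 0.198), -0.24 at its second probe, and -0.213 without KO3. At the second probe the groups overlapped, with WT1 at -0.20 below KO1 at -0.16 and KO2 at -0.10.

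Chaf1a, the large subunit of the same factor, had -0.0097, 0.40, 0.052 and 0.059 in WT and -0.24, 0.035, 0.0032 and -0.22 in KO. WT2 stood above all others, KO1 and KO4 were low, and the difference was -0.23 ± 0.11 (limma adjusted p = 0.364). Uhrf1, which reads newly copied DNA for maintenance methylation, differed by -0.10 ± 0.10 and by -0.27 at its second probe. Slbp, which binds the stem-loop of replication histone mRNA, differed by -0.083 ± 0.14, and by -0.12 at its second probe. In all, 7 members had several probes, and Ccne1 was the only one whose probes lay on different sides of 0.

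**Figure D3:**
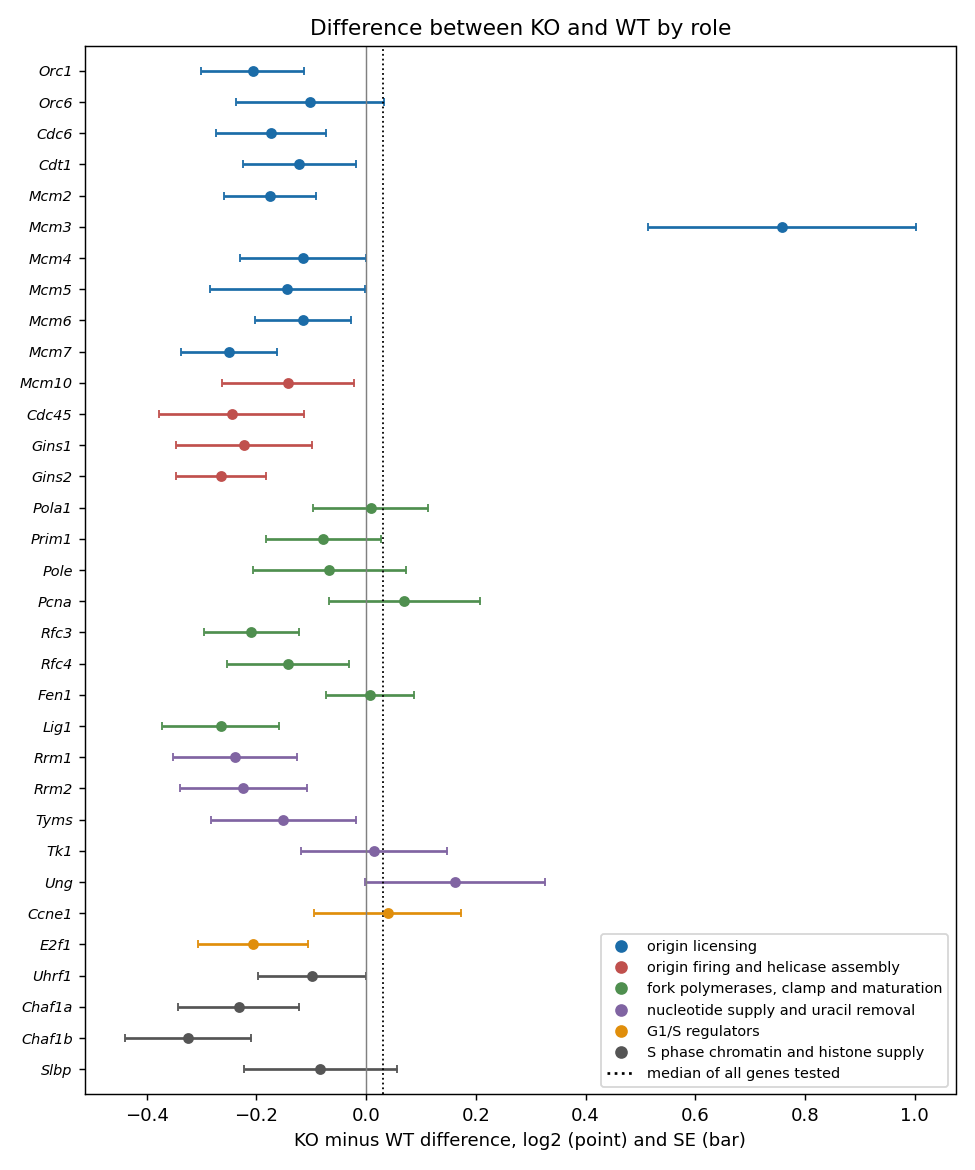
KO minus WT difference on the log2 scale (point) with its SE (bar) for the 33 measured members, coloured by role, with the median of all genes tested as a dotted line at 0.03. 26 points lie left of 0 and Mcm3 lies far to the right at 0.76, and no member passed at an adjusted p under 0.05; in the red channel alone 12 members lay below 0.

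The shift was not even over the arrays. The median over the 33 members was -0.195, 0.0256, -0.0298 and 0.114 in WT1 to WT4 and -0.11, -0.0986, -0.336 and -0.223 in KO1 to KO4. WT2, WT3 and WT4 were above all KO arrays, and WT1 lay among them. KO3 was the lowest KO array for 22 of the 33 members, and WT4 was the highest WT array for 16 and the lowest for 0. Without WT4 the median difference of the members was -0.0823, without KO3 it was -0.0722, and without both it was -0.0485 with 20 of 33 below 0. Without WT1 and KO1, the arrays of high background, it was -0.215 with 31 of 33 below 0, and with the sex of the embryo as a term it was -0.166 with 27 below 0. Single members moved more with sex as a term, where the median SE was 0.182: Cdc45 to -0.63, Chaf1a to -0.51, Lig1 to -0.50, Pole to -0.40 and Pcna to 0.30, while Ung was -0.13 ± 0.24. With that term each difference is the KO mean minus WT2, the only male WT array, so it rests on a single WT array. 0 members passed in any of these fits.

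Lists for mitosis and for single cell types were read on the same arrays. The median of 24 mitosis genes was -0.0941, 0.1, -0.0726 and 0.2 in WT1 to WT4 and 0.0288, -0.0644, -0.38 and -0.0716 in KO1 to KO4. KO3 was again the lowest and WT4 the highest. The median of 14 proximal tubule genes, which mark a mature segment, ran the other way, with -0.151, -0.3, -0.237 and -0.791 in WT and -0.0952, -0.119, 0.648 and 0.246 in KO. Here WT4 was the lowest and KO3 the highest, and 0 of the 14 genes passed in limma (9 at an unadjusted p under 0.05, all higher). Nephron progenitor markers had medians of -0.0752 to 0.189 in WT and -0.59 to -0.323 in KO, with 6 of 12 lower at a limma adjusted p under 0.05. Of those that did not pass, Six2 (-0.21), Meox1 (-0.37) and Osr1 (-0.059) lay below 0. Eya1 (0.21), Gdnf (0.082) and Crym (0.23) lay above 0. Stroma markers lay at -0.157 to 0.00961 in WT and 0.269 to 0.506 in KO (5 of 9 passed, all higher), and macrophage markers at -0.169 to -0.0633 and 0.253 to 0.375 (5 of 9 passed, all higher). The lists were chosen with earlier results of these data known, so these counts are descriptive. The part of these cell types in the members' values was not tested.

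**Figure D4:**
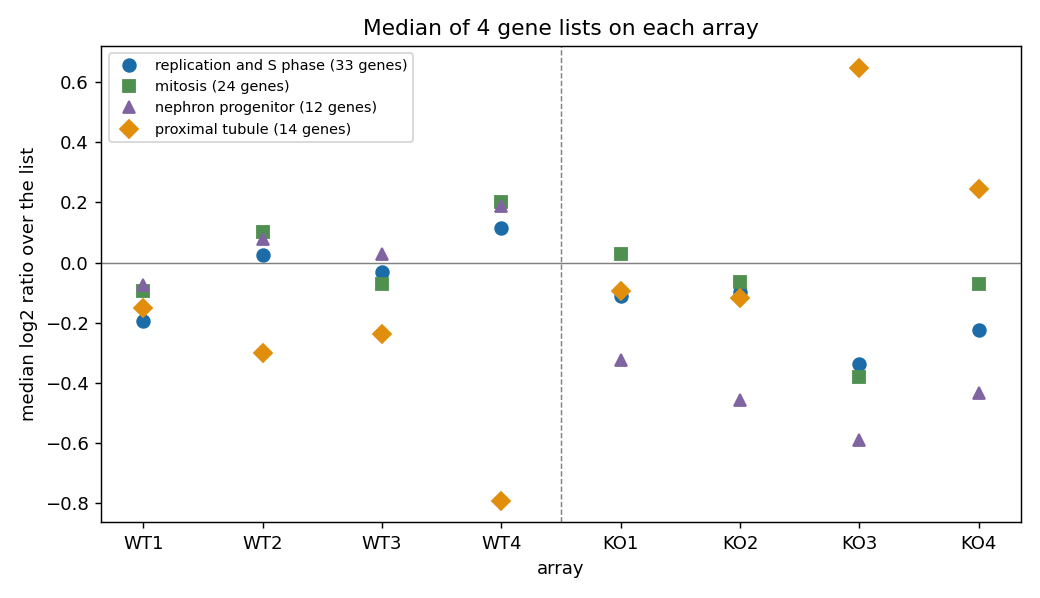
Median log2 ratio over each of 4 gene lists (symbols) on each of the 8 arrays, WT left and KO right of the dashed line. The replication and S phase median is lowest on KO3 at -0.336 and highest on WT4 at 0.114, while the proximal tubule median is highest on KO3 at 0.648 and lowest on WT4 at -0.791.

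The rest of the pathway was read from lists of genes that are not members. Among 44 measured genes of other replication machinery 36 lay below 0, with a median of -0.101, and 0 passed in limma (6 at an unadjusted p under 0.05, 4 of them lower). Rnaseh2a, a subunit of the nuclease that removes RNA from DNA, had 0.041, 0.26, 0.14 and 0.30 in WT and -0.25, -0.12, -0.14 and -0.14 in KO. All KO arrays were below all WT arrays. The difference was -0.35 ± 0.087 (limma adjusted p = 0.0636, and 0.0416 with the replicate block). With the mean of all its kept probes the difference of Rnaseh2a was smaller, -0.25 ± 0.079 (limma adjusted p = 0.152). Dna2, a nuclease and helicase of flap processing, differed by -0.40 ± 0.14 (limma adjusted p = 0.201). Among 24 mitosis genes 23 lay below 0, with a median of -0.126, and 0 passed in limma (1 at an unadjusted p under 0.05). The smallest p values there were those of Ttk, a kinase of the spindle checkpoint (-0.23 ± 0.091), and of Cenpa, the centromeric histone (-0.20 ± 0.10).

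Over the 4 lists 3 of 112 measured genes passed (2.68%), a share near the 2.12% of all genes tested. Of 16 measured genes of other nucleotide and histone supply 1 fell, and of 28 other G1/S regulators 1 rose and 1 fell. Shmt1, which supplies one-carbon units for thymidylate, had -0.15, -0.25, -0.37 and 0.16 in WT and -0.67, -0.70, -1.11 and -0.68 in KO. All KO arrays were below all WT arrays, and Shmt1 fell by 0.64 ± 0.13 (limma adjusted p = 0.0269; -0.45 at its second probe). Its call was lost in 5 of the 8 fits that left out 1 array, with a limma adjusted p of at most 0.0747.

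Myc, a transcription factor that promotes growth and entry into the cell cycle, had 0.050, -0.045, 0.038 and 0.16 in WT and -0.36, -0.40, -0.64 and -0.29 in KO. The groups did not overlap, and Myc fell by 0.48 ± 0.10 (limma adjusted p = 0.0239). This call too was lost in 5 of the 8 fits that left out 1 array, with a limma adjusted p of at most 0.0786. Cdkn1a, which encodes the cell cycle inhibitor p21 that binds cyclin-dependent kinases and Pcna, had 0.023, -0.085, 0.067 and -0.11 in WT and 0.48, 0.60, 1.13 and 0.71 in KO. Every KO array was above every WT array, KO3 the most, and Cdkn1a rose by 0.76 ± 0.13 (1.69-fold; limma adjusted p = 0.0107), with the call kept in all 8 fits that left out 1 array. A dim second probe of Cdkn1a gave -0.037. With sex as a term the difference was -0.54 ± 0.21 for Shmt1, -0.38 ± 0.15 for Myc and 0.81 ± 0.20 for Cdkn1a, and the calls were lost with larger errors. These differences rest on WT2, the only male WT array. All of these calls were also lost with scaling between arrays (limma adjusted p = 0.181, 0.133 and 0.113), with median centring and in the red channel alone. In the last 2 fits only 0 and 1 of all genes passed. The call of Myc was also lost with the scanner software's log ratios (0.0579). Without WT1 and KO1, Shmt1 and Myc did not pass (limma adjusted p = 0.0812 and 0.0702) and Cdkn1a did (0.0253). In the red channel alone without these arrays the values were 0.118, 0.226 and 0.0348.

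**Figure D5:**
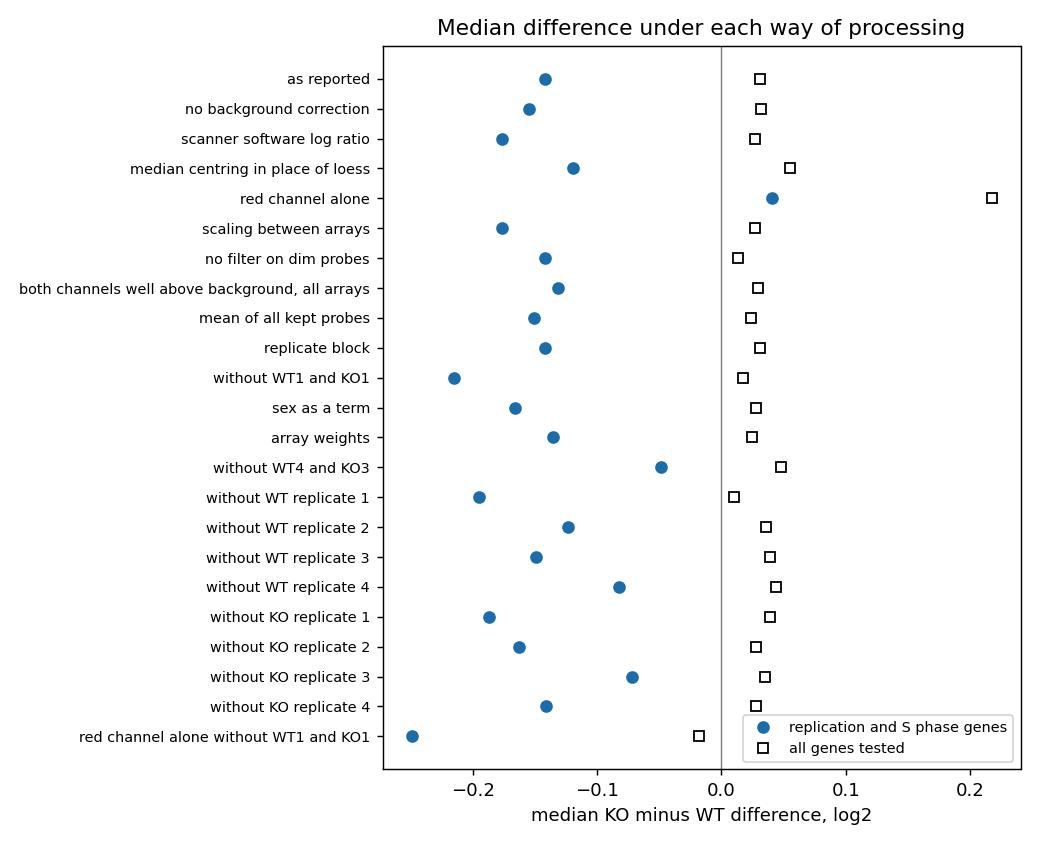
Median KO minus WT difference on the log2 scale over the measured members (blue circles) and over all genes tested (open squares), under each way of processing. The members' median lies left of that of all genes in each, from -0.249 in the red channel alone without WT1 and KO1 to 0.0408 in the red channel alone, where all genes have 0.217.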

How the data were processed

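Total RNA of 8 kidney pairs was amplified, labelled and hybridised to Agilent mouse arrays, all on 1 slide, per the labels' protocols and the file headers. The groups, replicate numbers and dyes come from the labels. Per the file headers, the deposited files come from version 10.7.3.1 of Agilent's Feature Extraction software and hold median red and green spot and background intensity on a linear scale without normalization, a log10 ratio of red over green that the software had background-subtracted and dye-normalized, and a score of 0 or 1 for each spot flag. The series table deposited by the authors holds the same log10 ratios (within 0.497%, with a median of 0 in each column).

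All fits were made with limma 3.58.1 (R 4.3.3). Normexp with an offset of 50 was applied to the median intensities, followed by loess on each array with control spots at weight 0. Outlier readings (1765, or 0.372%) were dropped, and 0 spots were saturated. Spots were averaged per probe, and a probe was kept if well above background in red on at least 4 arrays. Accessions without version matched RefSeq names for 27509 of 55681 probes, and of 18153 kept probes the brightest stood for its gene (3524 genes had several). KO against WT was tested with lmFit and eBayes on log2 ratios, adjusted by Benjamini-Hochberg over 13987 genes at a threshold of 0.05. The SE is the moderated one, and precision is limited by having 4 arrays a group. The script was tested on simulated data.

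Members and gene lists were chosen with earlier results of these data known. The rule for named genes took all members by role, with every array for the 12 of smallest p and values for the others, and of each further pathway list those that passed, or else the 2 of smallest p. Arrays of Cdc45 and Pcna were added after their values were seen. Samples of the same number deviated together from their group means (r = 0.138, 0.373, 0.257 and 0.304 over genes for numbers 1 to 4). This meets the rule used here that every r is over 0.1, but number 4 correlated better with another number (r = 0.369). The sample titles do not state that WT and KO of the same number belong together. A pairing is therefore not established, and the replicate block served only as an alternative. Alternatives covered background correction, normalization, channel, dim probes, probe choice, replicate block, sex, array weights and single arrays. A member not past the threshold counted as reversed only where both of its values exceeded their SE.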

Additional observations from a re-analysis of the deposited data

Results flagged for a closer look

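In 4 of the 68 groups of 4 arrays examined (the 33 members and the median over them, in WT and in KO), 1 array lay far from the other 3 by Dixon's test, which chance alone gives in about 1 of 20 groups. The log2 ratio of Cdt1 was -0.206 on KO2 and between -0.42 and -0.389 on the other KO arrays. Prim1 read -0.376 on WT1, where the other WT arrays lay between -0.0631 and -0.0447, and Uhrf1 read -0.34 on WT1 against -0.0598 to -0.0164. Chaf1a read 0.403 on WT2 against -0.0097 to 0.0587 on the other WT arrays. Both values of WT1 come from the array that held the same RNA in both colours.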

How the results depend on the processing

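Under every alternative run 0 members passed at a limma adjusted p under 0.05, and no member past the threshold existed to be lost or reversed. The number of all genes past the threshold, 296, became 123 with the scanner software's log ratios, 50 with scaling between arrays, 12 with sex as a term, 1 in the red channel alone (111 at an unadjusted p under 0.05) and 0 in limma when loess was replaced by median centring (178 at an unadjusted p under 0.05). It was 554 with the replicate block, 70 without WT4 and KO3, and 134 in the red channel alone without WT1 and KO1, the last pair of fits being chosen after seeing the data. Leaving out 1 array at a time gave 83 (without KO4) to 345 (without KO1), with 187 without WT1, 150 without WT2, 129 without WT4 and 140 without KO2. The members' median difference of -0.142 was 0.0408 in the red channel alone and -0.249 in that channel without WT1 and KO1. Leaving out arrays means fewer samples, and the cause of the other changes was not tested. The replicate block changed the call of no member. Gmnn and Ccne2 were too dim for a level.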
